A study of Homo sapiens with 18 samples.

Results

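The regions described here are 1541 genomic windows of 1 Kb whose chromatin was more accessible in the platinum-resistant ovarian cancer line PEA2 than in its sensitive counterpart PEA1, and at the same time more accessible in the sensitive line PEO1 than in its resistant counterpart PEO4. They were 1.77% of the 86965 windows on chromosomes 1 to 22 in a table of 89428 windows. A window was included where the PEA2 mean over replicates was above 2 FPKM and at least 3 times the PEA1 mean, and the PEO1 mean was above 2 FPKM and at least 3 times the PEO4 mean. FPKM is the number of fragments per kilobase of window, scaled to the mapped reads of the library, and for a 1 Kb window it equals RPM. The members were therefore chosen by the PEA and PEO values themselves, so these values are given as a description without a test, and only the comparison of CP70 with A2780 was tested. The same rule with the lines exchanged found 101 windows high in PEA2 and PEO4, 38 high in PEA1 and PEO1 and 55 high in PEA1 and PEO4.

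Accessibility was measured by ATAC-seq, in which a transposase inserts sequencing adapters into DNA that is not wrapped in nucleosomes, in 6 established ovarian cancer cell lines, each with 3 replicate libraries. CP70 is a resistant derivative of the A2780 line obtained by exposure to cisplatin in culture. PEA1 and PEA2 came from 1 patient with high-grade serous ovarian cancer, PEA1 before any platinum chemotherapy and PEA2 at relapse with resistant disease. PEO1 and PEO4 came from another such patient. PEO1 was taken after platinum-based chemotherapy but before clinical resistance, and PEO4 after resistance, so the sensitive lines differed in earlier treatment. All lines were grown in RPMI-1640 medium with serum, and the labels name no drug treatment before the assay. Each condition was thus represented by 1 line, and the labels do not state whether replicates were separate cultures, so p-values measure the spread between libraries, which may be technical.

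Accessible windows comprise gene promoters, which are often CpG-rich and open in most cell types, and distal enhancers, which lie in introns and between genes and differ between cell types. Many distal enhancers carry the motif of AP-1, a dimer of FOS and JUN family proteins that binds TGACTCA and responds to growth factor and stress signalling. TEAD proteins, the partners of YAP, FOX proteins and SOX proteins have their own short motifs and bind such enhancers too.

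Sequences are shown for 6 of the windows with the largest smaller difference over both pairs, because AP-1, TGANTCA, was the motif of 19 searched whose share differed most between the members and all windows. All are from the forward strand of GRCh37, 5′ to 3′, and capitals mark each match of TGANTCA, which reads the same on both strands. Read on the opposite strand, the chr6 stretch below closely resembled the chr5 stretch along most of its length. The chr5 and chr6 stretches are therefore not independent examples, and repeats were not examined. The first is a stretch of 300 bases with 3 matches from the intergenic window chr22:47724301-47725300, 555 kb from the nearest gene start, that of TBC1D22A, a gene of the TBC family of Rab GTPase-activating proteins. The others are 101 bases around a match, in the same order, from the intergenic window chr5:106209001-106210000 (nearest start EFNA5, an ephrin ligand, at 797 kb), the intergenic window chr11:59936401-59937400 (MS4A6A, a membrane protein of myeloid cells, at 13.6 kb), the window chr6:84576601-84577600 in an intron of CYB5R4 (a cytochrome b5 reductase), the intergenic window chr7:143169301-143170300 (TAS2R41, a bitter taste receptor, at 5.17 kb) and the intergenic window chr13:104759101-104760100 (SLC10A2, the ileal bile acid transporter, at 1041 kb).
chr22:47724749-47725048: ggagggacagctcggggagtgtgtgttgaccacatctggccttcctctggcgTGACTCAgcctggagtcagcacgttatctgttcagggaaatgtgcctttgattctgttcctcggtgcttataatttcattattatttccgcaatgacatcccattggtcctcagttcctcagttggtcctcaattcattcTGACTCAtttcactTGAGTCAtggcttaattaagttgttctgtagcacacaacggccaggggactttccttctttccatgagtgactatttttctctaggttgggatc
chr5:106209483-106209583: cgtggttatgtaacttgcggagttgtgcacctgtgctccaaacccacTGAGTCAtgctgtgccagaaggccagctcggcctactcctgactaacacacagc
chr11:59937279-59937379: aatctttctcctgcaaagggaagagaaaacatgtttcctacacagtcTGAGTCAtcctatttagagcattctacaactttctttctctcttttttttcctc
chr6:84577416-84577516: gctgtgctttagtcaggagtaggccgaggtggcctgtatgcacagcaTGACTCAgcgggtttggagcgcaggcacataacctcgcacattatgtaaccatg
chr7:143169560-143169660: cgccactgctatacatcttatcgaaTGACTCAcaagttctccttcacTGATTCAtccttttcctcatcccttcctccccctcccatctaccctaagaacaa
chr13:104759863-104759963: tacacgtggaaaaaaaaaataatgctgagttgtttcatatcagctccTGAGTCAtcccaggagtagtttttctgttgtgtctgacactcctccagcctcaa

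The libraries held between 8972042 (PEO1 replicate 3) and 60495462 reads (A2780 replicate 3), and every deposited value lay within 0.1 reads of a whole number of reads. The smallest value of A2780 replicate 1 was taken as 2 reads, from the spacing of its values. The table's windows held 38.9 to 40.8% of the reads of the PEO1 libraries, 32.8 to 35.9% for PEO4, 17.1 to 20.7% for PEA2 and 8.37 to 16.8% for PEA1, CP70 and A2780. Across all windows on chromosomes 1 to 22 the median log2 difference was 0.29 for PEA2 over PEA1 and 0.24 for PEO1 over PEO4, in the direction by which the members were chosen. After each library was scaled to the same median window, 454 windows met the rule, and all 454 were among the 1541. The part of such library differences in the members' values was not tested.

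The members were open in PEA2 and PEO1 by the rule, and most were below 1 FPKM in the other lines, 1458 in A2780, 1431 in CP70, 1329 in PEA1 and 800 in PEO4. Their median accessibility was 3.74, 2.72 and 3.11 FPKM in the 3 PEA2 libraries and 4.76, 4.62 and 4.68 FPKM in the 3 PEO1 libraries. It was 0.545, 0.592 and 0.527 FPKM in PEA1 and 0.988, 0.960 and 0.996 FPKM in PEO4. The line medians were 0.404 FPKM in A2780 and 0.397 FPKM in CP70, against 0.683 and 0.852 FPKM over all windows on chromosomes 1 to 22. The members also lay below the median over all windows in PEA1, which was 1.22 FPKM, and in PEO4, which was 2.24 FPKM, and above it in PEA2 (1.79 FPKM) and PEO1 (2.83 FPKM). The median number of reads behind a member was 5 to 9 in CP70, 11 to 19 in PEA1 and 42 to 70 in PEA2 and PEO1, so that low values in CP70 and PEA1 were the least precise.

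**Figure D1:**
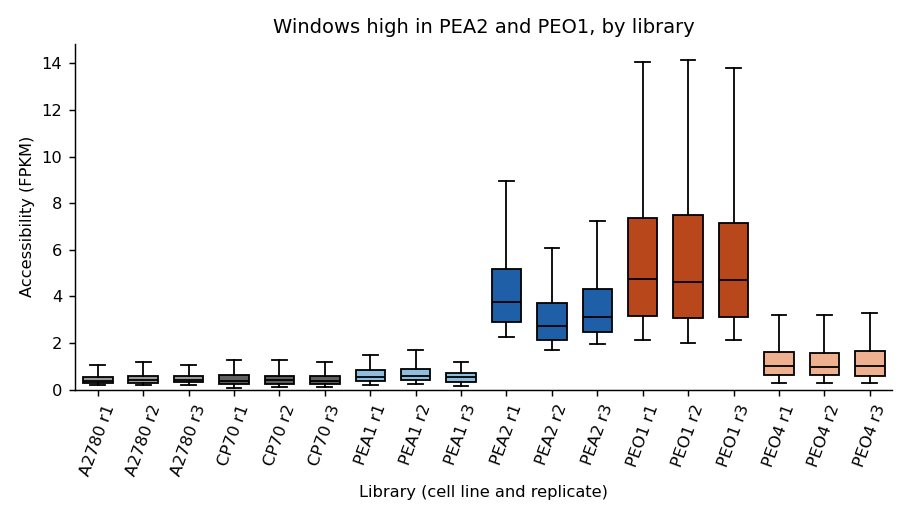
Accessibility in FPKM (linear axis) of the 1541 members in each of the 18 libraries; the line in a box is the median, the box the middle 50% of the windows, and whiskers run from the 5th to the 95th percentile. The medians of the PEA2 and PEO1 libraries lie between 2.72 and 4.76 FPKM and those of all other libraries below 1 FPKM.

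Together the members took 0.490 to 0.679% of all reads in the PEA2 libraries and 0.907 to 0.925% in the PEO1 libraries. They took 0.0897 to 0.111% in PEA1, 0.193 to 0.201% in PEO4 and 0.0745 to 0.0800% in A2780 and CP70. PEO4 had more signal than PEA1, with a higher mean in 1208 of the 1541 windows. It was above 2 FPKM in 255 members, against 19 in PEA1. The table as a whole differed in the same direction, with 55.6% of all windows above 2 FPKM in PEO4 and 31.2% in PEA1. PEA2 and PEO1 were the 2 highest of the 6 lines in 1482 members. In the remaining 59 members A2780, CP70, PEA1 or PEO4 was among the 2 highest. PEO1 was the highest line in 1132 members and PEA2 in 406. The median ratio of PEO1 to PEA2 was 1.38, the middle 50% running from 0.976 to 2.13. The median over all windows was also higher in PEO1 (2.83 FPKM) than in PEA2 (1.79 FPKM). The part of such differences between whole lines in the members' values was not tested.

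The median fold was 5.74 for PEA2 over PEA1 and 4.37 for PEO1 over PEO4, and the largest folds were 44.2 and 46.7. In all 1541 members the lowest library of the high line lay above the highest library of the low line in both pairs. The rule on the means favours such a gap, and its share over all windows was not computed. At the thresholds the study used, an absolute log2 fold change above 2 and an adjusted p below 0.001, 1054 members (68.4%) were higher in PEA2, against 11.2% of the 66103 windows tested in that pair. Likewise 815 members (52.9%) were lower in PEO4, against 5.78% of 77654 windows. These shares follow from the choice of the members and are not read further.

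The rule was also applied to 2 replicates of each line and its outcome read in the replicate left out. Without replicate 1, 1372 windows were chosen, and 995 of them (72.5%) met every criterion in replicate 1 alone, against 2.39% of the windows of the table. The corresponding share was 43.6% of 1839 windows for replicate 2 (1.34% of the table) and 61.7% of 1568 windows for replicate 3 (1.97% of the table). PEA2 replicate 2 had the lowest member median of the 3 PEA2 libraries. The left-out replicate is another library of the same lines, so a share above that of the table follows from the choice. These shares describe only the spread between libraries.

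**Figure D2:**
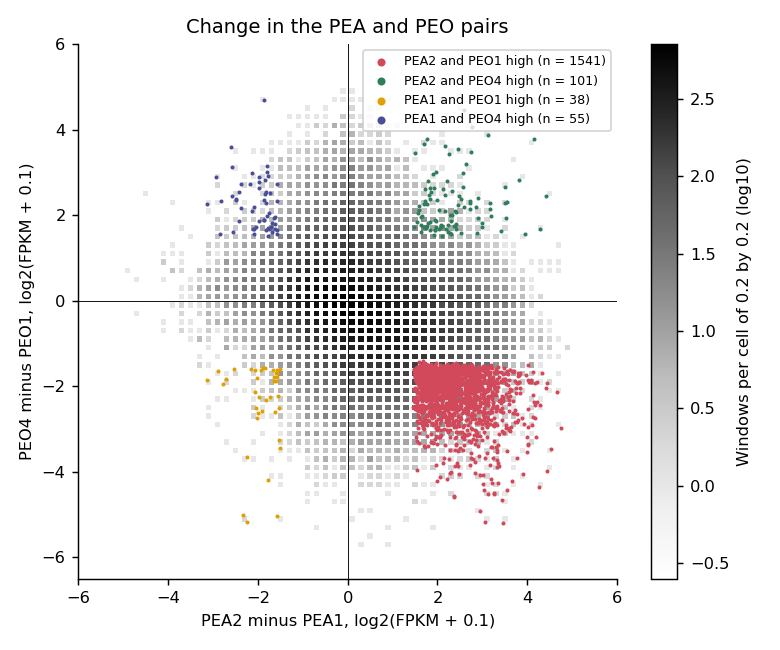
Log2 difference of PEA2 minus PEA1 (horizontal) and PEO4 minus PEO1 (vertical) on log2(FPKM + 0.1); grey squares give the number of windows per cell on a log10 scale, and coloured points the windows that met the rule for each of the 4 combinations of lines. The 1541 windows high in PEA2 and PEO1 fill the lower right, against 101, 38 and 55 in the other corners.

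At the edges of the rule the values ran on without a gap. The member with the lowest PEA2 mean had 2.001 FPKM (chr2:220968901-220969900, near SLC4A3, an anion exchanger) and the nearest window below the limit had 1.997 FPKM, near ESRP1. For PEO1 these values were 2.004 FPKM near PTGER4, a prostaglandin receptor, and 1.998 FPKM near MME. The smallest PEA2 over PEA1 ratio among members was 3.001, near LAMP3, and a window near FSTL1 with a ratio of 2.996 was left out. In the PEO pair a window near CHCHD3 with 6.74 against 2.25 FPKM was kept and a window near MARCO with 3.04 against 1.01 FPKM was just below the limit.

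In the window chr22:47724301-47725300, whose 3 AP-1 matches are shown above, PEA2 had 12.0, 6.76 and 7.90 FPKM and PEO1 6.78, 8.29 and 7.80 FPKM. PEA1 had 0.545, 0.685 and 0.288 FPKM, PEO4 0.407, 0.336 and 0.349 FPKM, A2780 0.541, 0.248 and 0.496 FPKM, and CP70 0.682, 0.299 and 0.293 FPKM. The other 4 lines overlapped with each other, and PEA2 and PEO1 overlapped only with each other. The folds were 17.6 for PEA2 over PEA1 and 20.95 for PEO1 over PEO4.

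The intronic CYB5R4 window had 5.77, 5.09 and 4.39 FPKM in PEA2 and 7.89, 7.59 and 6.80 FPKM in PEO1. Against these, PEA1 had 0.545, 0.125 and 0.479 FPKM and PEO4 0.233, 0.192 and 0.349 FPKM. All 3 PEO1 libraries lay above all 3 PEA2 libraries here. The MS4A6A and TAS2R41 windows had mean levels of 7.18 ± 1.03 and 7.91 ± 1.36 FPKM in PEA2 and 8.58 ± 0.396 and 8.14 ± 0.779 FPKM in PEO1 (SD, n = 3 each), with no mean above 0.660 FPKM in any other line.

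The chr5:106209001-106210000 window had 6.65, 4.97 and 5.37 FPKM in PEA2 and 6.98, 5.85 and 6.24 FPKM in PEO1. The low lines rested on few reads, 2 to 7 per library in PEA1 and 3 to 9 in PEO4. In the chr13:104759101-104760100 window the high lines were lower, at 3.52, 3.24 and 3.55 FPKM in PEA2 and 2.02, 2.79 and 1.56 FPKM in PEO1. PEO4 had 1 to 4 reads per library there, so no ratio is given.

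The highest members, ranked by the lower of the PEA2 and PEO1 means, differed in kind. The window in an intron of CUL1, the scaffold of SCF ubiquitin ligases (chr7:148469401-148470400), had 21.4, 14.6 and 16.4 FPKM in PEA2 and 24.9, 21.3 and 24.1 FPKM in PEO1. It kept 5.12, 5.04 and 5.13 FPKM in PEO4 and 3.04, 3.05 and 1.87 FPKM in PEA1, so it was open above 2 FPKM in 4 lines on average while the A2780 lines stayed at 0.239 to 0.379 FPKM.

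The window at the 3′ end of the zinc finger gene ZNF783 (chr7:148981501-148982500) was CpG-rich, had no AP-1 match and was open in all lines but CP70. Its levels were 22.8 ± 2.41 FPKM in PEA2, 16.8 ± 2.05 FPKM in PEO1, 6.43 ± 0.322 FPKM in PEA1, 1.29 ± 0.279 FPKM in CP70, 2.48 ± 0.304 FPKM in A2780 and 2.58 ± 0.517 FPKM in PEO4 (SD, n = 3 each). The intergenic windows nearest to FBXL4, a mitochondrial F-box protein, and to ZNF212 had 15.8 ± 2.66 and 14.0 ± 2.18 FPKM in PEA2 and 14.0 ± 0.781 and 17.8 ± 1.12 FPKM in PEO1. Both held AP-1 matches, and the FBXL4 window also held the TEAD motif GGAATGT.

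The members lay mostly in introns and between genes, away from gene starts. Of the 1541, 902 (58.5%) were intergenic and 551 (35.8%) intronic, whereas 33 (2.14%) were in the promoter-TSS class and 11 (0.714%) exonic. Over all windows on chromosomes 1 to 22 the intergenic share was 37.0%, the intronic share 37.2%, the promoter-TSS share 18.9% and the exonic share 2.95%. Windows that met only the PEA criteria or only the PEO criteria were also rarely promoters, at 4.67% and 5.22%, and 52.8% and 52.9% of them were intergenic. When all transcripts were used in place of those of protein-coding genes, 6.88% of members were promoters and 36.7% intergenic, against 24.6% and 22.8% of all windows. The median distance of a member to the nearest protein-coding gene start was 61.3 kb, against 12.5 kb over all windows, and 37.2% of members lay beyond 100 kb, against 19.8%. This was not particular to the members. The median distance was 44.6 kb in windows that met only the PEA criteria and 62.5 kb in those that met only the PEO criteria. Of these, 30.2% and 39.4% lay beyond 100 kb.

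The members were poor in CpG. The median GC content was 44.2%, against 50.5% over all windows, 46.2% for windows that met only the PEA criteria and 43.6% for those that met only the PEO criteria. A window was called CpG-rich where GC was above 50% and the observed to expected CpG ratio above 0.6. There were 43 such members (2.79%), against 23.3% of all windows. The share was also low in windows that met only the PEA criteria (4.21%) or only the PEO criteria (6.04%).

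The AP-1 motif TGANTCA was found in 1059 members (68.7%), against 38.3% of all windows of the same length on chromosomes 1 to 22. The share was 55.4% in windows that met only the PEA criteria and 60.9% in those that met only the PEO criteria. It was 32.7% in windows high in PEA2 and PEO4, 42.1% in those high in PEA1 and PEO1 and 32.7% in those high in PEA1 and PEO4. Taking 1 window of each run of neighbouring members gave 71.8%. Ranked by the smaller log2 difference, the lowest 514 members had a share of 64.6%, the middle 513 had 69.2% and the highest 514 had 72.4%.

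Base composition changes how often a short motif occurs, and members were lower in GC than the table. Below 40% GC the AP-1 share was 73.3% of members and 60.8% of all windows, from 40 to 50% it was 73.4% and 51.1%, and above 50% it was 48.6% and 23.9%. Among intronic and intergenic windows of 40 to 50% GC with both A2780 lines below 1 FPKM, 74.0% of the 855 members had a match, against 57.0% of the 23211 other windows. The higher share in members was thus seen in each GC class, and in this closest group the gap was smaller than over all windows.

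The share of windows that were members went up with the number of AP-1 matches. It was 0.898% of windows with no match, 2.50% with 1, 4.37% with 2 and 6.49% with 3 or more. In the intronic and intergenic windows of 40 to 50% GC that were low in the A2780 lines, the same shares were 2.18%, 3.76%, 5.46% and 8.29%. Of the 1541 members, 482 had no match, 586 had 1, 333 had 2 and 140 had 3 or more.

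**Figure D3:**
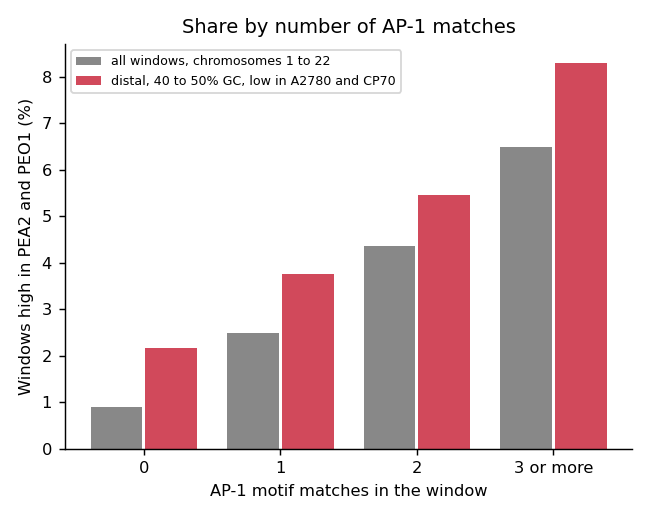
Percent of windows that met the rule (linear axis from 0) by the number of TGANTCA matches in the 1 Kb window, for all windows on chromosomes 1 to 22 (grey) and for intronic and intergenic windows of 40 to 50% GC with A2780 and CP70 below 1 FPKM (red). Both series go up at each step, from 0.898% to 6.49% and from 2.18% to 8.29%.

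Both forms of the motif were more frequent. The form with C or G in the middle (TGACTCA, on either strand) was in 53.4% of members and 28.4% of all windows, and the form with A or T (TGAATCA) in 30.8% and 15.4%. Among windows without the C or G form, the A or T form was in 32.9% of 718 members and 13.8% of all 62288 such windows, and in the closest group in 36.2% of 348 members and 24.4% of 13209 others. The longer cyclic AMP response element TGACGTCA was rare, in 0.454% of members and 1.31% of all windows.

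Other motifs differed less. The TEAD motif GGAATGT was in 19.5% of members and 14.5% of all windows, the FOX motif TGTTTAC in 17.5% and 11.7%, and the SOX motif ACAATGG in 16.2% and 10.2%. In the closest group these gaps narrowed to 21.8% and 19.4% for TEAD, 16.8% and 14.2% for FOX, and 16.3% and 13.6% for SOX. The RUNX motif AACCACA was in 20.6% of members and 22.9% of others there. Motifs of promoters and insulators were less frequent over the whole table, with the SP/KLF motif GGGGCGGGG in 3.18% of members and 14.3% of all windows, and AGGGGGC, the core of the CTCF motif, in 11.5% and 24.7%. Within the closest group these values were 1.87% and 1.52% for SP/KLF and 9.94% and 10.1% for CTCF. A match is a run of letters and does not show that a factor was bound.

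**Figure D4:**
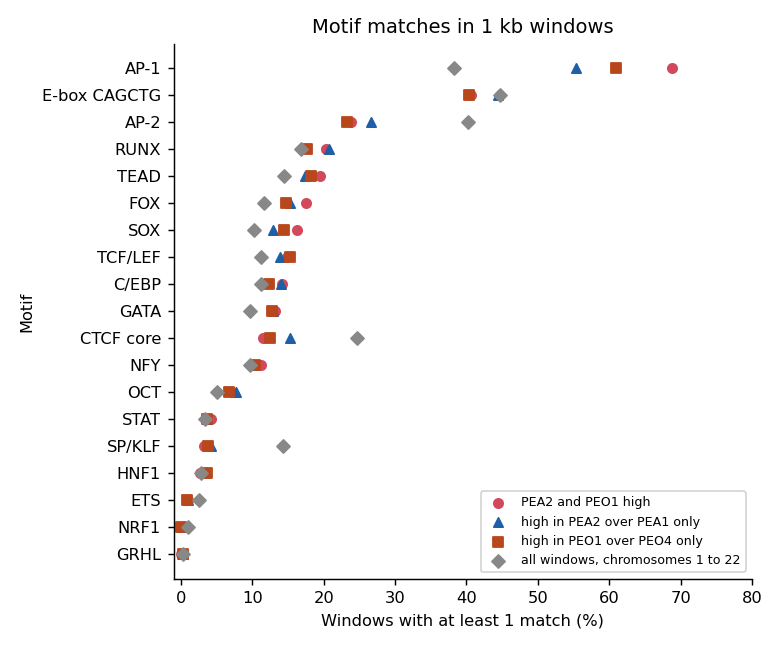
Percent of 1 Kb windows with at least 1 match (horizontal) for 19 motifs (vertical) in the 1541 members (red circles), windows that met only the PEA criteria (blue triangles) or only the PEO criteria (brown squares), and all windows on chromosomes 1 to 22 (grey diamonds). The AP-1 motif shows the largest excess of members over all windows, 68.7% against 38.3%, and AP-2 and CTCF lie lower in members.

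The share of AP-1 windows among open windows of each line differed in the same direction. Among windows above 2 FPKM it was 39.4% of 58547 in PEO1, 32.2% of 48337 in PEO4, 38.4% of 38323 in PEA2, 25.0% of 27133 in PEA1, 15.0% of 20899 in CP70 and 12.9% of 10746 in A2780. Restricted to intronic and intergenic windows it was 49.0%, 41.0%, 48.4%, 34.7%, 17.8% and 16.4% in the same order. PEA2 was thus above PEA1 and PEO1 above PEO4, but the number of open windows rose in the same order within each pair, and its part in these shares was not tested. These values include the members.

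The 33 members in promoters were few, and 6 of them had the largest smaller difference. At the start of PRR16, a gene linked to cell size (chr5:119952001-119953000), PEA2 had 3.79, 2.20 and 2.66 FPKM and PEO1 3.24, 4.62 and 3.23 FPKM. PEA1 had 0.256, 0.125 and 0.0479 FPKM and PEO4 0.639, 0.288 and 0.697 FPKM. At the start of ADPRH, an ADP-ribosylarginine hydrolase (chr3:119300401-119301400), PEA2 had 6.32, 4.10 and 4.44 FPKM, PEO1 4.45, 3.93 and 3.79 FPKM, PEA1 0.641, 1.21 and 0.911 FPKM and PEO4 0.523, 0.768 and 0.797 FPKM. In neither window did the high and low lines overlap. Both held 1 AP-1 match, shown here in capitals with its surroundings on the forward strand of GRCh37, first for PRR16 and then for ADPRH, because these are exceptions among windows that were mostly distal.
chr5:119952389-119952489: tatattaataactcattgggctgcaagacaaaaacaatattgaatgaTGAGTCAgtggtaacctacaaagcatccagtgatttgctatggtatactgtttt
chr3:119301196-119301296: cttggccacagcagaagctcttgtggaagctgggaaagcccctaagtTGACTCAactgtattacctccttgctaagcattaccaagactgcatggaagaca

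Among the other promoters, that of MOV10L1, a helicase of the germline piRNA pathway, had 4.43 ± 1.09 FPKM in PEA2 and 4.19 ± 0.315 FPKM in PEO1, against 0.610 ± 0.205 FPKM in PEA1 and 0.742 ± 0.334 FPKM in PEO4. The promoter of PRSS37, a serine protease family gene of testis, had 2.22 ± 0.840 and 5.90 ± 0.592 FPKM in the high lines and 0.338 ± 0.049 and 0.783 ± 0.288 FPKM in the low lines (SD, n = 3 each).

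The locus of COL22A1, a collagen of tissue junctions, held members of both kinds, and it was looked at as a whole after its values were seen. Within the gene and 100 kb on either side, 9 of 52 windows of the table were members, namely 3 in introns, 2 in the promoter and 4 upstream. The highest, in an intron (chr8:139842901-139843900), had 17.1, 11.1 and 13.2 FPKM in PEA2 and 24.6, 23.9 and 23.2 FPKM in PEO1. It had 0.513, 0.561 and 0.815 FPKM in PEA1, 0.639, 1.44 and 1.34 FPKM in PEO4, 0.296 to 0.428 FPKM in A2780 and 0.303 to 0.359 FPKM in CP70. With folds of 21.9 and 20.9 it ranked first of all members by the smaller log2 difference.

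The window over the COL22A1 start (chr8:139925701-139926700) had 9.01, 7.34 and 8.03 FPKM in PEA2 and 10.4, 11.2 and 11.6 FPKM in PEO1. In PEA1 it had 1.09, 0.872 and 1.68 FPKM and in PEO4 1.69, 1.73 and 1.89 FPKM. The next window upstream was alike, at 7.34 ± 1.63 FPKM in PEA2, 10.2 ± 1.59 FPKM in PEO1, 1.06 ± 0.088 FPKM in PEA1 and 1.77 ± 0.109 FPKM in PEO4 (SD, n = 3 each). Neither promoter window held an AP-1 match, whereas 5 of the 9 members of the locus did. Averaged over the 9 members, the locus had 10.3 FPKM in PEO1, 7.34 in PEA2, 1.33 in PEO4, 0.835 in PEA1, 0.606 in A2780 and 0.507 in CP70. The other 43 windows averaged 2.66 FPKM in PEO1, 3.09 in PEA2, 1.83 in PEO4 and 0.896 in PEA1.

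Members formed 1302 runs of neighbouring windows, of which 1071 were single windows, 224 had 2 members, 6 had 3 and 1 had 4. The windows start every 900 bp and overlap by 100 bp, so neighbours share some reads and are not independent. The run of 4 lay at chr7:148031101-148034800 in an intron of CNTNAP2, a neurexin-related adhesion protein, and averaged 5.24 FPKM in PEA2, 4.04 in PEO1, 0.833 in PEA1 and 0.532 in PEO4. A run of 3 at chr12:130608901-130611700, 35.8 kb from the start of the WNT receptor gene FZD10, averaged 3.48 FPKM in PEA2, 5.97 in PEO1, 0.591 in PEA1 and 1.33 in PEO4. A run of 3 in an intron of RIN2, a Ras and Rab interactor (chr20:19972801-19975600), averaged 6.38, 4.37, 1.91 and 0.929 FPKM in the same lines.

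Of the members, 614 lay between the start and end of a protein-coding gene, in 428 genes. CNTNAP2 held most, 10 of its 67 windows, followed by DGKI, a diacylglycerol kinase, with 9 of 36, MACROD2, an ADP-ribose hydrolase, with 9 of 51, and RIN2 with 7 of 47. Averaged over its 10 members CNTNAP2 had 5.95, 4.39 and 4.81 FPKM in the PEA2 libraries, 8.37, 7.74 and 8.15 in PEO1, 1.03, 1.12 and 0.901 in PEA1 and 1.48, 1.67 and 1.52 in PEO4. A single intronic window of CNTNAP2 (chr7:146893501-146894500) reached 27.6 FPKM in PEO1 and 4.76 FPKM in PEO4, with 2.32 FPKM in PEA2 and 0.651 in PEA1.

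The 9 DGKI members averaged 4.26, 3.41 and 3.80 FPKM in PEA2 and 5.82, 5.59 and 5.15 FPKM in PEO1, against 0.391 to 0.530 FPKM in PEA1 and 0.939 to 1.26 FPKM in PEO4. The 9 MACROD2 members averaged 4.16, 3.42 and 3.39 FPKM in PEA2 and 5.33, 4.98 and 5.19 FPKM in PEO1, against 0.416 to 0.548 and 0.523 to 0.780 FPKM. RIN2 was the exception in which PEA2 exceeded PEO1, with 8.51, 6.37 and 7.46 FPKM against 4.55, 4.60 and 4.09 FPKM, and in which PEA1 kept 1.47 to 2.08 FPKM. Windows of these genes that were not members were also higher in PEA2 than in PEA1, averaging 1.73 and 0.660 FPKM in CNTNAP2, 2.29 and 0.527 in DGKI, 2.64 and 1.17 in MACROD2 and 4.80 and 2.07 in RIN2. They were likewise higher in PEO1 than in PEO4, for instance averaging 3.62 and 1.47 FPKM in CNTNAP2, 2.66 and 1.19 in MACROD2 and 2.03 and 0.728 in RIN2.

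The members were unevenly spread over the chromosomes. Chromosome 3 held 233 (3.84% of its windows), chromosome 5 184 (3.22%) and chromosome 7 164 (3.10%), together with 36 (2.84%) on chromosome 22. Chromosome 19 held 8 (0.262%), chromosome 17 held 9 (0.233%) and chromosome 21 held 1 (0.157%). Among bins of 5 Mb with at least 20 windows, the densest were 65 to 70 Mb of chromosome 13, with 4 of 28 windows, 115 to 120 Mb of chromosome 5, with 15 of 112, and 45 to 50 Mb of chromosome 22, with 27 of 202. In all, 365 of 566 bins held a member.

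Bin medians were taken over the windows of a bin, members or not, with a mean above 1 FPKM across the PEA and PEO libraries. In these bins most such windows were higher in PEA2 and in PEO1. The median log2 difference was 2.05 (PEA2 over PEA1) and 1.55 (PEO1 over PEO4) in the chromosome 13 bin. It was 1.93 and 0.74 in the chromosome 5 bin, and 1.52 and 1.38 in the chromosome 22 bin. Over all members the median of the bin values was 0.87 for the PEA pair and 0.69 for the PEO pair, against 0.28 and 0.29 over all windows. Both bin medians were above 0 for 1371 members (89.0%) and for 53.4% of all windows. With the bin median subtracted, the members' median log2 difference went from 2.32 to 1.57 for PEA2 over PEA1 and from 2.04 to 1.42 for PEO1 over PEO4, and 481 of the 1541 still met the rule. Copy number was not analysed here, and its part in the bin medians was not tested.

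**Figure D5:**
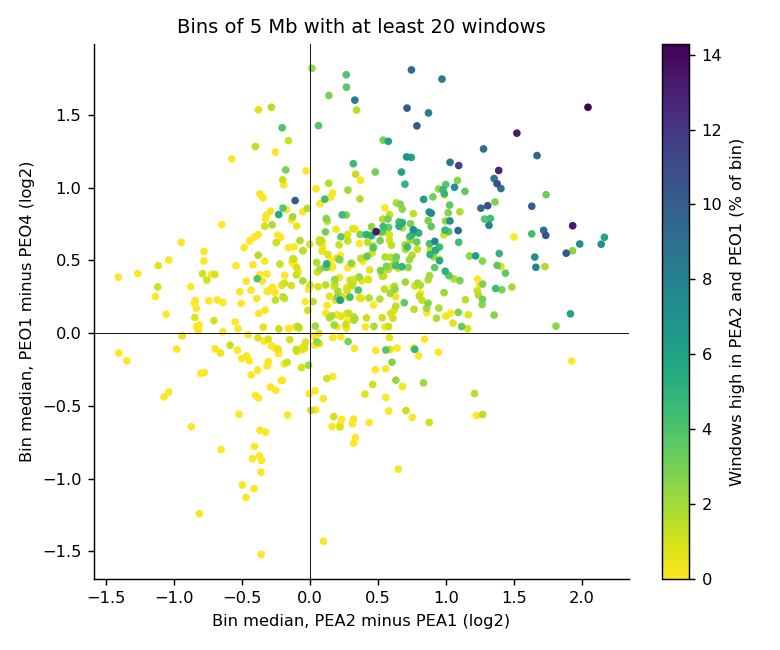
Each point is a bin of 5 Mb with at least 20 windows, placed by the median log2(FPKM + 0.1) difference for PEA2 minus PEA1 (horizontal) and PEO1 minus PEO4 (vertical). The medians are over its windows with a mean above 1 FPKM across the PEA and PEO libraries. Colour gives the percent of all its windows that were members. Bins with the highest shares, up to 14.3%, lie mostly in the upper right, where both medians are above 0.

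Genes of lists relevant to ovarian cancer and platinum resistance were searched for members within 100 kb of their start, which held for 1334 of 18877 protein-coding genes (7.07%). Of 24 genes of epithelial identity, 2 had a member, the splicing regulator ESRP1 and the laminin chain LAMB3. Of 24 genes of the mesenchymal transition, 3 did, namely LOX, which cross-links collagen, ITGA5, the integrin subunit for fibronectin, and the microfibril gene FBN1. None of 13 genes for AP-1 factors had a member, and 1 of 18 YAP and TEAD genes did, CRIM1. These counts are small and lie near the share over all genes, and being near a gene does not assign a window to it.

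The LOX window (chr5:121457701-121458700, 44.2 kb from the start, 2 AP-1 matches) had 3.85, 2.20 and 3.55 FPKM in PEA2 and 9.71, 8.38 and 10.1 FPKM in PEO1. It had 0.352, 0.405 and 0.623 FPKM in PEA1 and 1.51, 1.97 and 1.84 FPKM in PEO4, with PEO4 above PEA1 in each library. The intronic ITGA5 window, also with 2 AP-1 matches, had 2.88 ± 0.345 FPKM in PEA2, 3.43 ± 0.368 in PEO1, 0.783 ± 0.271 in PEA1 and 0.908 ± 0.236 in PEO4 (SD, n = 3 each). The window 49.6 kb from FBN1 had 2.33 ± 0.933 FPKM in PEA2 and 7.24 ± 0.878 in PEO1, against 0.280 ± 0.0625 in PEA1 and 2.01 ± 0.223 in PEO4.

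Of 18 genes of the Müllerian lineage, from which the fallopian tube derives, 2 had a member, the homeobox gene EMX2 and MECOM, a zinc finger transcription factor gene often amplified in ovarian cancer. MECOM had 5 such windows, and a further one lay within the gene. Averaged over the 6, MECOM had 3.23, 2.39 and 2.57 FPKM in PEA2, 6.76, 6.17 and 6.48 FPKM in PEO1, 0.454, 0.447 and 0.448 FPKM in PEA1 and 0.756, 0.848 and 0.955 FPKM in PEO4. CP70 averaged 0.130 to 0.215 FPKM there. The EMX2 window, 80.3 kb from the start, had 7.86, 4.68 and 6.57 FPKM in PEA2 and 3.44, 3.75 and 2.67 FPKM in PEO1, against 0.623 to 0.748 FPKM in PEA1 and 0.498 to 1.10 FPKM in PEO4.

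Of 30 adhesion and guidance genes 3 had a member, NCAM1, CDH18 and PCDH9. The NCAM1 window, 35.4 kb from the start of this neural adhesion molecule, had 5.23 ± 1.03 FPKM in PEA2 and 4.73 ± 0.154 in PEO1, against 0.529 ± 0.125 in PEA1 and 0.608 ± 0.263 in PEO4. Of 19 platinum transport and repair genes 2 did, the efflux pump ABCC2, with 2.25 ± 0.591 FPKM in PEA2 and 3.13 ± 0.171 in PEO1, and the glutathione transferase MGST1, with 2.01 ± 0.494 and 2.45 ± 0.595 FPKM (SD, n = 3 each). Of 21 interferon-stimulated genes only RSAD2, an antiviral enzyme, had a member, with 2.27 ± 0.481 FPKM in PEA2 and 6.40 ± 0.429 in PEO1.

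The A2780 pair was not used to choose the windows, and it asks whether they were also accessible, or changed, in an unrelated model of acquired resistance. They were mostly closed in it. Both A2780 and CP70 were below 1 FPKM in 1405 members (91.2%), against 53.2% of all windows on chromosomes 1 to 22. In 28 members (1.82%) at least 1 of the lines was above 2 FPKM, against 24.8%, and 108 lay between. Windows that met only the PEA criteria or only the PEO criteria were alike, with 85.2% and 87.2% low in both lines. Every window of the table was above 2 FPKM in at least 2 libraries, which members met through PEA2 and PEO1. Other windows could meet it through A2780 or CP70 alone, so part of the contrast with all windows follows from this limit.

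The few members that were open in the A2780 pair differed in sequence from those that were not. AP-1 matches were found in 10 of the 28 open members (35.7%), 43.5% of the 108 between and 71.3% of the 1405 low ones. A lower share in open windows was not particular to the members. Over the whole of chromosomes 1 to 22 it was 12.9% of windows above 2 FPKM in A2780 and 15.0% in CP70, against 38.3% of all windows. The median GC content was 56.6% in the open members and 43.7% in the low ones, and 9 of 28 and 14 of 1405 were CpG-rich. These 2 measures were not split in this way over all windows.

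Only 97 members averaged more than 1 FPKM across the 6 libraries of this pair and could be tested with limma on log2(FPKM + 0.1). These do not stand for the 1541, most of which were below this limit. At an adjusted p below 0.05, 27 (27.8%) were higher in CP70, against 47.5% of the 37128 windows tested, and 13 (13.4%) were lower, against 2.29%. The median log2 fold change of CP70 over A2780 was 0.12 in the tested members and 0.59 in all tested windows, so the table as a whole was shifted towards CP70. At the thresholds the study used, 2 members were higher (background 0.428%), the windows near EMP1 and SEL1L, and 1 lower (0.369%), the window in ZNF398. The split depended on scaling, in members and in the table alike. After each library was scaled to the same median, 13 of 554 tested members were higher and 57 lower, against 4951 and 2651 of 61115 windows. After quantile normalization these counts were 12 and 66 of 543 members, against 3793 and 5103 of 60827 windows. After removal of the 5 Mb bin median they were 4 and 17 of 97, against 541 and 1199 of 37128, and with edgeR's normalization of the reads 9 and 35 of 97, against 2550 and 3922 of 37128. Without A2780 replicate 2 they were 17 and 5 of 94, against 13466 and 394 of 37762, and without A2780 replicate 3 they were 14 and 10 of 101, against 6833 and 602 of 38302.

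The 3 members with the smallest adjusted p among those higher in CP70 passed the limit of 1 FPKM only through CP70. Their A2780 means were all below 1 FPKM. They did not overlap between CP70 and A2780, which follows from picking them by p. The window near EMP1, an epithelial membrane protein (chr12:13375801-13376800), had 4.02, 1.92 and 2.01 FPKM in CP70 against 0.349, 0.293 and 0.380 FPKM in A2780, a difference of 2.56 on the log2 scale with an SE of 0.29 (adjusted p = 5.07e-16 by limma). It had 3.13, 2.31 and 2.62 FPKM in PEA2 and 4.86, 4.71 and 4.90 FPKM in PEO1. The window near PPIAL4D, a cyclophilin-like gene (chr1:148247101-148248100), rose by 1.86 ± 0.25 (limma adjusted p = 1.67e-11), and an intergenic window of chromosome 14 (chr14:83629801-83630800), 1630 kb from the nearest start, that of SEL1L, by 2.25 ± 0.35 (limma adjusted p = 1.23e-08). The first had 3.48, 3.35 and 2.30 FPKM in CP70 and 0.744 to 0.767 FPKM in A2780, and the second 2.58, 1.38 and 1.38 FPKM in CP70 and 0.248 to 0.331 FPKM in A2780. The PPIAL4 genes have near-identical copies in this region, 45.1 kb from the window, so a count of uniquely aligned reads there is uncertain. The EMP1 window held the TEAD motif and the chromosome 14 window 2 AP-1 matches.

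Of the members lower in CP70, an intronic window of the zinc finger gene ZNF398 (chr7:148842001-148843000) had 1.69, 2.73 and 1.69 FPKM in A2780 and 0.0758, 0.419 and 0.377 FPKM in CP70, so that the difference was -2.57 on the log2 scale (SE 0.34, adjusted p = 9.74e-12 by limma). In this window CP70 moved as PEO4 did against PEO1 (0.862 against 4.73 FPKM) and opposite to PEA2 against PEA1 (3.22 against 0.794 FPKM). An intronic window of CAMTA1, a calmodulin-binding transcription factor (chr1:7022701-7023700), had 4.57, 6.24 and 4.18 FPKM in A2780 and 0.833, 1.32 and 1.42 FPKM in CP70 (-1.99 ± 0.27, limma adjusted p = 1.22e-11). A CpG-rich window near ZIC1, a neural zinc finger gene (chr3:147136501-147137500), had 2.07 ± 0.357 FPKM in A2780 and 0.599 ± 0.117 in CP70 (-1.64 ± 0.27, limma adjusted p = 9.39e-08). The ZNF398 and ZIC1 windows were below 1 FPKM in CP70 and passed the limit only through A2780. These 6 windows kept their direction and an adjusted p below 0.05 under the 13 to 17 alternatives in which each was tested, other than the study's thresholds. With CP70 replicate 1, their highest CP70 library, left out, the EMP1 and SEL1L windows were not tested. The same held for SEL1L without CP70 replicate 2 or 3, and for ZNF398 without A2780 replicate 2, its highest A2780 library.

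The members with the highest mean level over both A2780 lines did not show 1 pattern. The window in an intron of HHAT, the Hedgehog acyltransferase (chr1:210546901-210547900, 3 AP-1 matches), had 5.23, 6.83 and 4.81 FPKM in A2780 and 10.1, 6.23 and 4.77 FPKM in CP70, which overlapped (0.26 ± 0.32, limma adjusted p = 0.466). There PEO4 had 0.174, 0.192 and 0.199 FPKM against 3.74, 2.88 and 1.89 FPKM in PEO1. The CpG-rich window near the olfactory receptor gene OR2V2 (chr5:180600301-180601300) had 2.82, 3.58 and 2.83 FPKM in A2780 and 12.0, 7.96 and 6.99 FPKM in CP70 (1.48 ± 0.31, limma adjusted p = 3.50e-05). The window in an intron of SLC38A8, an amino acid transporter (chr16:84047401-84048400), had 5.25 ± 1.15 FPKM in A2780 and 4.64 ± 1.76 in CP70 (-0.21 ± 0.31, limma adjusted p = 0.538). The HHAT and SLC38A8 calls depended on scaling. The SLC38A8 window was lower in CP70 after quantile normalization (-0.90, limma adjusted p = 2.33e-06) and with edgeR (-0.85, adjusted p = 0.000226). The HHAT window was lower after quantile normalization (-0.37, limma adjusted p = 0.0169) and higher with the median of each GC decile removed (0.84, limma adjusted p = 0.0387).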

How the data were processed

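ATAC-seq libraries of 6 cell lines, 3 each, were used. The authors aligned the reads to hg19 with Bowtie2, kept unique alignments, removed duplicates with Picard, counted reads in windows of 1 Kb with featureCounts and deposited FPKM, which at this width is RPM. Every window of the table was above 2 FPKM in at least 2 libraries, a limit read from the values, and the coordinates match GRCh37. The paper describes another filter of its windows, by depth with a lower and an upper bound. Whether that filter shaped the table was not examined. Reads were recovered from the deposited values by the smallest step of each library. Line means over 3 replicates gave the members. CP70 was compared with A2780 by limma 3.58.1 (lmFit, eBayes with trend) on log2(FPKM + 0.1) over all windows with a mean above 1 FPKM, with Benjamini-Hochberg adjustment and a threshold of 0.05. limma-voom and edgeR 4.0.16 on the recovered reads were alternatives. The test was also run on simulated counts with equal changes up and down and no shift of the other windows. This pair was shifted as a whole, so that run does not bear on how its calls depended on scaling.

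Windows were annotated with the protein-coding basic transcripts of GENCODE v44 lifted to GRCh37 and searched on both strands of the GRCh37 sequence for fixed letters. Only the PEA and PEO values entered the rule. The members, gene lists and motifs were chosen with earlier results of these data known. The separation of AP-1 forms, the comparison with similar windows, the count by number of matches and the left-out replicates were chosen after seeing the data. Windows named were the 8 with the largest smaller log2 difference (10 kb apart), the 4 highest, the largest runs and bins, 6 promoters, 3 in each direction in the A2780 pair, 3 highest there, the 4 genes with most members and the edges of the rule. All libraries were used. Intervals of levels are SDs over libraries and cover no variation between lines. Same-numbered A2780 and CP70 libraries did not deviate together (r = -0.412, -0.172 and -0.04).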

Additional observations from a re-analysis of the deposited data

How the results depend on the processing

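The number of members followed the scaling and the limits of the rule, 1541 as given, 454 with libraries scaled to the same median, 559 after quantile normalization, 981 with the median of each GC decile removed and 527 with the 5 Mb bin median removed. It was 3981 at 2-fold, 397 at 5-fold, 2891 with a level of 1 FPKM, 177 with 5 FPKM and 490 where every library had to meet the rule. With 1 replicate left out it ranged from 1345 to 1742. Members higher in CP70 numbered 27, and 42 with no filter, 7 with a mean above 2 FPKM, 13 with median scaling, 12 with quantile normalization, 4 with the bin median removed, 2 at the study's thresholds and 9 with edgeR. Over all windows the same settings called 15839 of 89428, 7804 of 15915, 4951 of 61115, 3793 of 60827, 541 of 37128, 159 of 37128 and 2550 of 37128, against 17620 of 37128. Members lower in CP70 numbered 13, and 89, 2, 57 and 66 under the first 4 of these settings, 8 with the GC decile median removed, 1 at the study's thresholds and 35 with edgeR. Over all windows these were 2836, 161, 2651 and 5103 of the same totals, 962 of 34813, 137 of 37128 and 3922 of 37128, against 851 of 37128. Without 1 replicate the counts ranged from 14 to 23 higher and from 5 to 18 lower. With the replicate block they were 23 and 12, and the replicate numbers were not found to pair the libraries. Several settings changed how many members were tested, which was 97 as given. It was 1541 with no filter, 16 with a mean above 2 FPKM, 554 with median scaling and 543 with quantile normalization. With the GC decile median removed it was 92. Counts of members under these settings thus have different totals and cannot be compared directly. The cause of the other changes was not tested.

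The log2 fold change of the HHAT window between CP70 and A2780 changed sign, to -0.024 with median scaling, -0.37 with quantile normalization, -0.17 with the bin median removed, -0.36 with edgeR and -0.028 without CP70 replicate 1, the lowest of a range up to 0.50 with 1 replicate left out. It was called in opposite directions after quantile normalization (limma adjusted p = 0.0169) and with the GC decile median removed (0.84, limma adjusted p = 0.0387). The SLC38A8 window was called lower in CP70 after quantile normalization (-0.90, limma adjusted p = 2.33e-06) and with edgeR (-0.85, adjusted p = 0.000226). The OR2V2 window had an adjusted p of 0.227 (limma) with the bin median removed. Shares of intergenic and promoter windows depended on which transcripts were used. Depth limits the low lines, where a member rested on a median of 5 to 25 reads in A2780, CP70 and PEA1.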

Other observations

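Of the 2463 windows of the table on the sex chromosomes, which the rule left out, 52 met the same criteria in both pairs.

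RUNX matches differed between the sets of windows. The motif AACCACA was in 20.4% of the 1541 members, 32.7% of the 101 windows high in PEA2 and PEO4, 23.7% of the 38 high in PEA1 and PEO1 and 29.1% of the 55 high in PEA1 and PEO4. The last 3 sets are small, and no test was made.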
